A study of Mus musculus with 8 samples.

Results

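Genomic imprinting leaves one parental copy of a gene silent, so that some genes are read from the paternal chromosome only and others from the maternal chromosome only. The marks are differentially methylated regions set in the germ line, and the genes under one such region lie together in domains that often hold a long noncoding RNA. Many imprinted genes act on fetal growth, with paternally expressed genes tending to promote it and maternally expressed genes to restrain it, and fibroblasts of the embryo express a part of them.

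The 33 imprinted genes described here were taken by name from a table of 49492 rows. By general knowledge of mouse imprinting 19 of them are expressed from the paternal allele and 13 from the maternal allele, and Gnas is expressed from both, from one or from the other according to transcript and tissue. The RNA-seq came from Pontin f/f mouse embryonic fibroblasts (MEFs) that stably expressed Flag-tagged Pontin WT or the R333A/R339A mutant (RA), in which arginine methylation sites of the Pontin chromatin remodelling factor are replaced by alanine. Endogenous Pontin had been deleted with Cre virus in every group. The 4 groups of 2 samples were WT cells in normal medium, WT cells under glucose starvation, RA cells in normal medium and RA cells under glucose starvation. Starvation meant glucose-free medium with dialyzed serum. WT and RA were stable lines, so that the form of Pontin and the line that carries it cannot be told apart. The labels do not say whether the samples of a group came from separate cultures, and the study's general statement that experiments were done independently does not name these libraries. The p-values therefore measure the spread between these samples, which may be technical. The table does not separate the alleles: every value below is the sum of both, and the expressed allele is background.

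The 8 libraries held 43205841 to 56363034 reads, and 1 read was worth 0.0183 to 0.0230 of the normalized value (CPM on a library size scaled by the authors). Ruvbl1, which encodes Pontin, read 28.4 and 27.6 in WT cells in normal medium, 27.9 and 28.4 in starved WT cells, 36.8 and 32.0 in RA cells in normal medium and 45.05 and 42.87 in starved RA cells, and reads of the introduced and the endogenous gene cannot be told apart in it. All 10 fibroblast markers examined had rows, and their summed value was 10829 to 11173 in normal medium, 5563 to 5649 in starved WT cells and 7326 to 7340 in starved RA cells.

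Of the 33 genes, 22 reached a normalized value of 1 in at least 2 samples and were tested, 14 of them paternal, 7 maternal, and Gnas. The remaining 11 were too low to read, 5 paternal and 6 maternal, and are described at the end. Differences are given on the scale of log2(value + 1) with their standard error (SE), from limma across all 16232 genes tested, and a gene was called at a Benjamini-Hochberg (BH) adjusted p under 0.05. Adding 1 compresses the changes of weakly expressed genes, and ratios of group means are therefore given beside the differences. Per kilobase of annotated exon, the mean in WT cells in normal medium was 69.5 for Gnas, 15.6 for Impact, 12.4 for Nnat, 11.8 for Peg10 and 10.02 for Meg3, and 0.0289 for Kcnq1ot1, whose exon is long. These lengths are of a later annotation than the one behind the table.

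**Figure D1:**
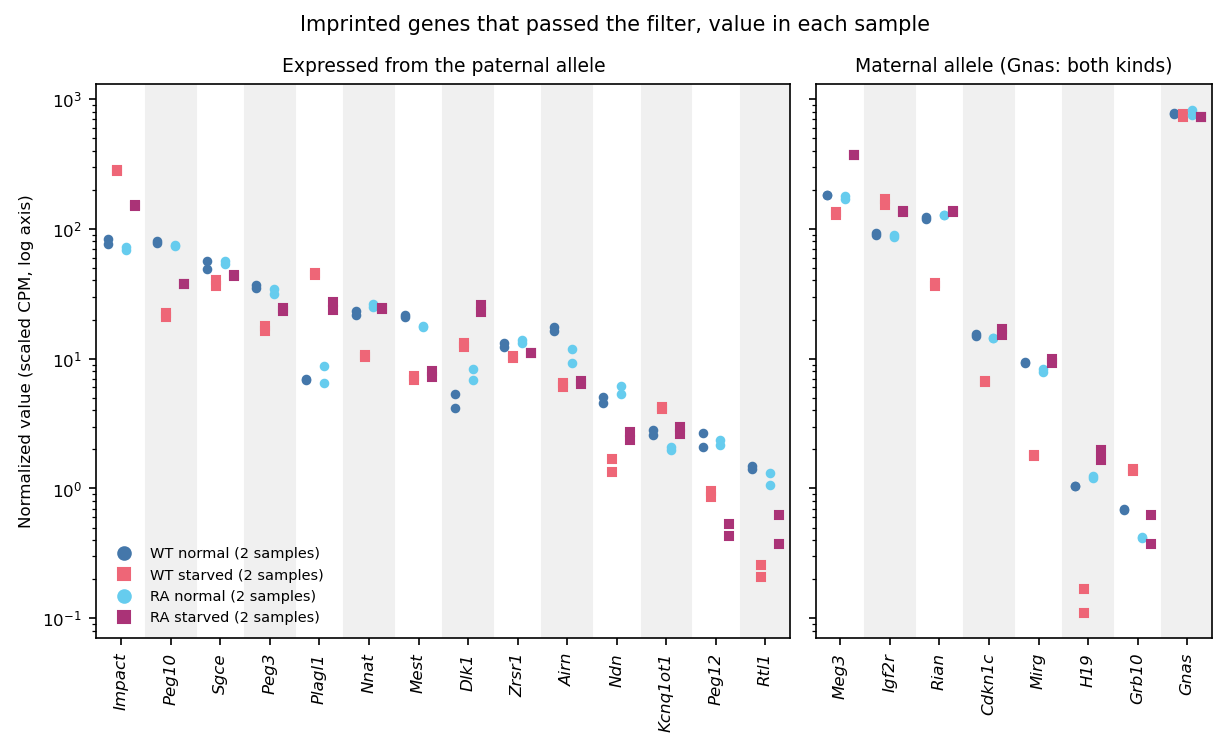
Normalized value (scaled CPM, log axis) of the 22 imprinted genes that passed the filter, with paternally expressed genes on the left and maternally expressed genes and Gnas on the right; each point is 1 of 8 samples, 2 for each group. Starved WT samples (red squares) lie below the other groups for Rian, Mirg, Cdkn1c, H19 and Nnat, and above them for Impact and Plagl1.

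In normal medium few imprinted genes differed between WT and RA cells by the test. Of the 22 genes tested, 3 were called: Dlk1 was higher in RA cells, and Airn and Impact were lower. Over all genes tested 9.63% were called, 6.68% higher and 2.95% lower, so that the share of imprinted genes called, 3 of 22, was near the background. All 3 were among the 14 paternal genes. Of the 7 maternal genes limma called 0, with 0 at an unadjusted p under 0.05, and edgeR and DESeq2 called 0 on the reads recovered from the values. The median difference was -0.07 over the paternal genes, -0.05 over the maternal genes and 0.01 over all genes. Of all called genes 69.4% were higher in RA cells with the deposited scaling, 40.4% with scaling to total reads and 52.6% after quantile normalization, while none of the 3 imprinted genes changed direction.

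Under glucose starvation 17 of the 22 genes differed between WT and RA cells, 11 higher and 6 lower in RA cells, where 62.9% of all genes were called, 30.8% higher and 32.1% lower. The 7 maternal genes tested were all called, among them Grb10, which passed the filter through the starved WT samples alone and left the test without either of them. The noncoding RNAs Meg3, Rian, Mirg and H19 and the cell cycle inhibitor Cdkn1c were higher in starved RA cells, and Igf2r and Grb10 were lower. Of the 14 paternal genes 10 were called, with Nnat, Dlk1, Peg10, Ndn, Peg3 and Sgce higher in starved RA cells and Impact, Plagl1, Kcnq1ot1 and Peg12 lower. The median difference was 1.30 over the maternal genes, 0.14 over the paternal genes and -0.01 over all genes. These medians cover only the genes that passed the filter: without it the median was 0.05 over all 13 maternal genes and 0.08 over all 19 paternal genes. The genes added without it were too low to read, and adding 1 compresses their differences. The maternal genes Meg3, Rian and Mirg lie one after the other on the same strand of one domain and are not separate observations. In bulk RNA, fewer cells of a type and less RNA per cell cannot be told apart in any of these differences.

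Starvation itself moved nearly every readable imprinted gene of WT cells. It changed 21 of the 22, with 6 higher and 15 lower. The exception was Gnas, which edgeR called lower (-0.11, BH-adjusted p = 0.0273). Of all genes 78.6% were called, 39.3% higher and 39.2% lower. The 14 paternal genes were all called, 4 higher and 10 lower, and so were the 7 maternal genes, 2 higher and 5 lower. The median difference was -0.91 over the paternal genes, -0.85 over the maternal genes and 0.00 over all genes, and without the filter -0.45 over the 19 paternal and -0.14 over the 13 maternal genes. Rtl1 and Peg12 reached a value of 1 in the 4 libraries of normal medium alone, so that the filter favoured their fall, and H19 reached it in every group but starved WT cells.

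In RA cells starvation changed 17 of the 22, 7 higher and 10 lower, against a background of 68.7%, with 35% higher and 33.7% lower. The paternal genes resembled those of WT cells in count, with 4 higher and 9 lower of 14. Of the 7 maternal genes 3 rose, Meg3, Igf2r and H19, and limma called 0 lower, with 0 lower at an unadjusted p under 0.05 and 0 by edgeR or DESeq2. The median difference was -0.38 over the paternal genes, 0.22 over the maternal genes and 0.01 over all genes, and without the filter -0.31 over the paternal and 0.08 over the maternal genes. WT and RA comparisons with normal medium share no samples with each other, but each shares its samples with the comparisons between WT and RA cells.

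The difference between both responses was tested as an interaction, the response of RA cells minus that of WT cells. It was called for 13 of the 22 genes, 10 above 0 and 3 below, where 50.6% of all genes were called, 24.5% above 0 and 26.1% below. Among the maternal genes 6 of 7 were called, 5 above 0 and Igf2r below. Among the paternal genes 7 of 14 were called, with Airn, Peg3, Mest, Nnat and Peg10 above 0 and Plagl1 and Impact below. The median interaction was 1.23 over the maternal genes, 0.29 over the paternal genes and -0.01 over all genes. Without the filter the order of both classes turned, at 0.04 over the 13 maternal and 0.14 over the 19 paternal genes. The genes added there were too low to read, and adding 1 compresses their differences. With a pseudocount of 0.1 the medians of the tested genes were 1.56 maternal and 0.31 paternal. Summed over the 7 maternal genes, the value was 425 and 416 in WT cells in normal medium, 350 and 327 in starved WT cells, 424 and 408 in RA cells in normal medium and 672 and 672 in starved RA cells, a sum made mostly by Meg3, Igf2r and Rian. The sum over the 14 paternal genes was 346 and 344, 458 and 454, 330 and 323, and 365 and 362 in the same groups, with Impact as its main contributor under starvation.

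**Figure D2:**
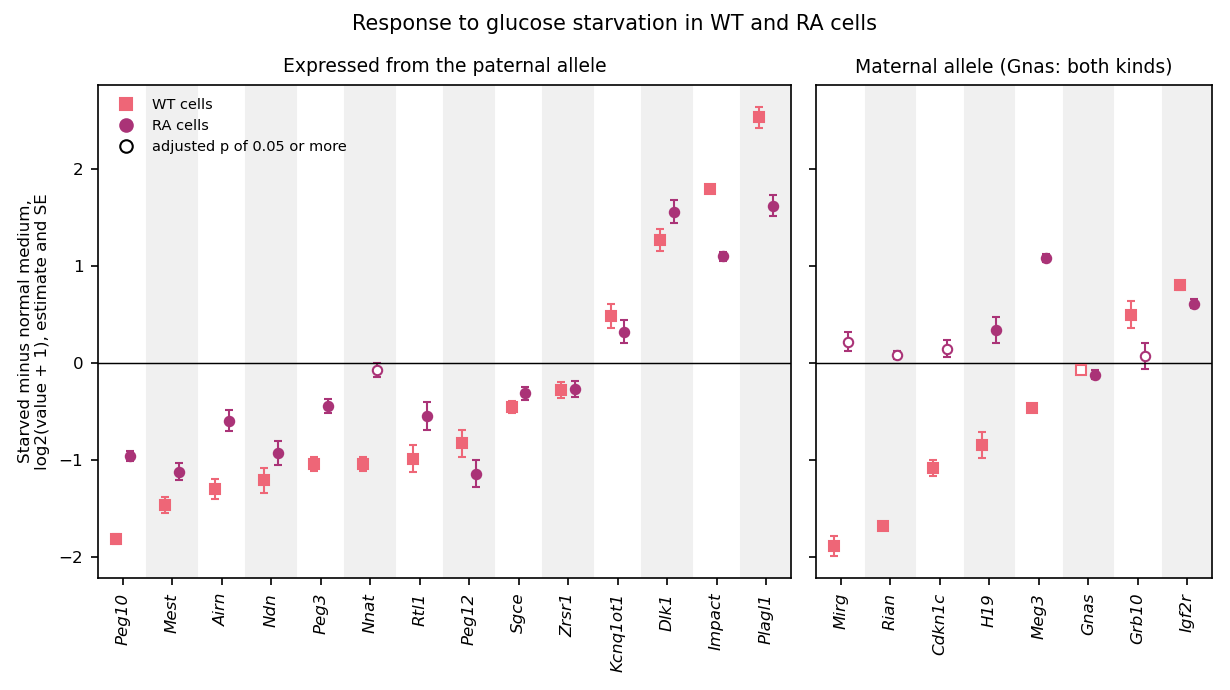
Difference between starved and normal medium on the log2(value + 1) scale (estimate and SE, limma) for each of 22 imprinted genes in WT cells (squares) and RA cells (circles), with open symbols for an adjusted p of 0.05 or more. Mirg, Rian, Cdkn1c, H19 and Meg3 lie below 0 in WT cells and at or above 0 in RA cells, while most paternal genes moved the same way in both.

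The Dlk1-Meg3 domain held the 3 largest differences between starved RA and WT cells among the 22 genes on the log2(value + 1) scale, while by the ratio of means H19 led, at 13.1 times, before Mirg (5.37), Rian (3.68) and Meg3 (2.84). The domain expresses the noncoding RNAs Meg3, Rian and Mirg from the maternal chromosome, which host snoRNAs and microRNAs, and the protein-coding genes Dlk1 and Rtl1 from the paternal chromosome. Meg3 stood at 181 and 181 in WT cells in normal medium, 134 and 128 in starved WT cells, 181 and 169 in RA cells in normal medium and 373 and 370 in starved RA cells. The starved groups thus lay on either side of the groups in normal medium, with no overlap between them. Starvation lowered Meg3 by 0.47 ± 0.04 (SE) in WT cells (BH-adjusted p = 1.18e-08) and raised it by 1.09 ± 0.04 in RA cells (BH-adjusted p = 3.18e-13), which is 2.13 times the mean in normal medium. The interaction was 1.55 ± 0.06 (BH-adjusted p = 9.11e-13). An antisense gene model, Gm26906, shares 6.79% of the exon bases of Meg3 and read 5.65 to 28.6.

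Rian, the host of box C/D snoRNAs, fell in WT cells from 124 and 119 to 37.9 and 36.2, a difference of -1.68 ± 0.04 (BH-adjusted p = 5.02e-16). In RA cells it read 128 and 129 in normal medium and 135 and 137 under starvation, a difference of 0.08 ± 0.04 that was not called (BH-adjusted p = 0.0869). Mirg, which hosts a microRNA cluster, fell in WT cells from 9.31 and 9.39 to 1.80 and 1.79, 5.21 times below the mean in normal medium. In RA cells Mirg read 8.37 and 7.91, and then 10.01 and 9.29 (difference 0.22 ± 0.10, BH-adjusted p = 0.0644). The interaction was 1.77 ± 0.06 for Rian (BH-adjusted p = 2.57e-13) and 2.11 ± 0.14 for Mirg (BH-adjusted p = 3.63e-09).

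The 3 transcripts did not keep one ratio. Within a library the value of Meg3 was 1.31 to 1.52 times that of Rian in normal medium, 3.52 and 3.54 times in starved WT cells and 2.69 and 2.76 times in starved RA cells. Meg3 was 19.3 to 21.6 times Mirg in normal medium, 74.2 and 71.5 times in starved WT cells and 37.3 and 39.8 times in starved RA cells. The ratio of Rian to Mirg moved less, from 12.6 to 16.3 in normal medium to 21.0 and 20.2 in starved WT cells and 13.5 and 14.8 in starved RA cells. In both lines Meg3 thus stood higher against Rian and Mirg under starvation than in normal medium.

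Dlk1, a transmembrane protein of the Notch ligand family known as a preadipocyte factor, went the opposite way to Rian and Mirg in WT cells. It rose from 5.35 and 4.19 to 12.3 and 13.3 in WT cells and from 6.90 and 8.37 to 22.9 and 26.1 in RA cells, 2.69 and 3.21 times the means in normal medium. Both differences were called (1.27 ± 0.11, BH-adjusted p = 1.97e-08, and 1.56 ± 0.11, BH-adjusted p = 2.17e-09), and the interaction was not (0.30 ± 0.16, BH-adjusted p = 0.137). RA cells read higher than WT cells in either medium, by 0.58 ± 0.11 in normal medium (BH-adjusted p = 0.00343) and by 0.88 ± 0.11 under starvation (BH-adjusted p = 3.92e-06). The call in normal medium was lost without WT normal replicate 2 (0.44, BH-adjusted p = 0.0552). Rtl1, a retrotransposon-derived gene that lies antisense to microRNAs of the maternal strand, read 1.48 and 1.41 in WT cells in normal medium and 0.210 and 0.256 under starvation, and 1.06 and 1.32 in RA cells in normal medium and 0.627 and 0.372 under starvation. It fell in both lines, by 0.99 ± 0.14 in WT cells (BH-adjusted p = 6.13e-06) and by 0.55 ± 0.14 in RA cells (BH-adjusted p = 0.00243), on 10 to 32 reads per starved library and with a filter that it passed through normal medium alone.

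**Figure D3:**
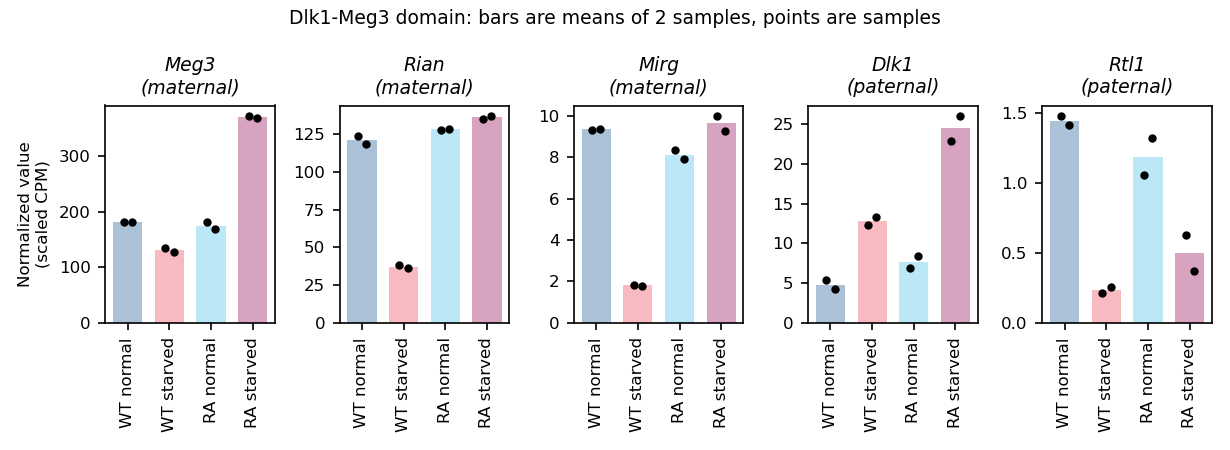
Normalized value (scaled CPM, linear axes from 0, one scale per gene) of the 5 genes of the Dlk1-Meg3 domain in each group; bars are means of 2 samples and points are the samples. Rian and Mirg drop in starved WT cells alone, Meg3 is highest in starved RA cells at 373 and 370, Dlk1 rises in both lines and Rtl1 falls in both.

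The starts of the domain's oppositely imprinted genes are shown because their transcripts moved in opposite directions in starved WT cells. Promoter windows of 250 bases before and 50 after the start were read from RefSeq (GRCm38.p6) and searched on both strands for TGCCGC, the core recognised by the imprint-protecting zinc finger protein ZFP57, and for GTAAACA, the core recognised by FOXO factors. No window of an imprinted gene held both motifs. The window of Meg3 (chr12:109540746-109541045, plus strand) held 1 TGCCGC match and that of Dlk1 (chr12:109452573-109452872, plus strand) held 2 GTAAACA matches, here in capitals as they read on the plus strand.
Meg3: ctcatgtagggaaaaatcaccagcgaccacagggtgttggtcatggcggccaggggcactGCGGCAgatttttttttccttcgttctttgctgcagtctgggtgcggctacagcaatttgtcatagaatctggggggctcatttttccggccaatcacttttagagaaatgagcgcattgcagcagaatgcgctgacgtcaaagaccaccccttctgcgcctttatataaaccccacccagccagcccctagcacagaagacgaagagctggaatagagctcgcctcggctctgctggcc
Dlk1: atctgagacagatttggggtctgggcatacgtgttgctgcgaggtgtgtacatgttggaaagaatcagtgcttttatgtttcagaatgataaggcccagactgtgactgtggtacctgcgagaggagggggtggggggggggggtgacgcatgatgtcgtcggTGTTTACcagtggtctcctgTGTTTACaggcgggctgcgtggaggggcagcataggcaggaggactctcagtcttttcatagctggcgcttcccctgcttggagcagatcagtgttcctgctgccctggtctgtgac
Windows were read for 27 of the 33 genes, 43 windows in all. Shares were taken over windows of distinct sequence. TGCCGC was found in 23.3% of those of the imprinted genes and in 11.7% of all 32544, and GTAAACA in 2.33% and 3.66%. The shares left out no chromosome, while the 27 genes do not include Impact, whose sequences are not reported here. Dlk1 was the only one of the 27 with a GTAAACA match. A match here describes the letters of a window and not a bound site.

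Many short rows inside the noncoding hosts held few reads. Of 14 microRNA hairpins that RefSeq places within Mirg, all had rows in the table and 5 passed 3 reads in at least 1 library. Mir410 held 8 and 7 reads in WT cells in normal medium, 1 and 2 in starved WT cells, 4 and 3 in RA cells in normal medium and 8 and 13 in starved RA cells. Mir675, which lies in H19, held 2 and 5, 2 and 1, 3 and 2, and 8 and 11 reads in the same groups. Mir410 and Mir675 stayed below the filter. Mir1906-1, which lies in exons of Meg3, read 2.23 to 9.27, and the snoRNA row Gm24895 in Rian read 1.10 to 4.11. Both passed the filter, and their differences are not described here. The reads of all these rows are of long host transcripts in libraries selected for polyadenylated RNA. They say nothing of the mature microRNAs. Those of Mir410 and Mir675 are shown because they are what these hosts carry. Capitals mark the seed, bases 2 to 8.
mmu-miR-410-5p: aGGUUGUCugugaugaguucg
mmu-miR-410-3p: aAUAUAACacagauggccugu
mmu-miR-675-5p: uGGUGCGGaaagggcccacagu
mmu-miR-675-3p: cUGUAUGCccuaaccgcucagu
No 2 of the 4 seeds are the same.

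H19, a maternally expressed noncoding RNA that shares its imprinting control region with the growth factor gene Igf2, was low throughout. It read 1.04 and 1.05 in WT cells in normal medium, 0.168 and 0.110 in starved WT cells, 1.24 and 1.20 in RA cells in normal medium and 1.65 and 1.98 in starved RA cells. Behind the lowest of these stood 8 and 6 reads, and behind the highest 84 and 96. In WT cells it fell by 0.85 ± 0.13 (BH-adjusted p = 1.84e-05), 7.54 times below the mean in normal medium, and under starvation RA cells were higher by 1.30 ± 0.13 (BH-adjusted p = 2.40e-07). The rise in RA cells (0.34 ± 0.13, BH-adjusted p = 0.0323) was lost with edgeR (BH-adjusted p = 0.0615), and also without RA normal replicate 1 (0.35, BH-adjusted p = 0.0769), RA normal replicate 2 (0.33, BH-adjusted p = 0.101) or RA starved replicate 2 (0.25, BH-adjusted p = 0.203). Igf2 itself held 1 to 8 reads per library and could not be read.

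Cdkn1c, a maternally expressed inhibitor of cyclin-dependent kinases, was likewise lowest in starved WT cells. Unlike H19, Cdkn1c had starved RA samples that overlapped those of WT cells in normal medium. Cdkn1c fell in WT cells from 15.6 and 15.0 to 6.62 and 6.72, a difference of -1.08 ± 0.08 (BH-adjusted p = 2.66e-09). In RA cells it read 14.5 and 14.3 in normal medium and 15.2 and 16.9 under starvation (0.15 ± 0.08, BH-adjusted p = 0.126), and the interaction was 1.23 ± 0.12 (BH-adjusted p = 2.58e-07). An annotated antisense transcript, Gm44732, covers 30.7% of its exon bases and read 3.14 to 7.60. The library kit does not mark strand, so reads of the shared bases cannot be told apart by strand. The noncoding RNA of the same domain, Kcnq1ot1, is paternally expressed and silences neighbouring genes in cis.

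Kcnq1ot1 rose in WT cells from 2.57 and 2.82 to 4.23 and 4.09 (0.48 ± 0.12, BH-adjusted p = 0.0015) and read 1.98 and 2.09, then 2.98 and 2.62 in RA cells (0.32 ± 0.12, BH-adjusted p = 0.0249). The second call was lost with DESeq2 (BH-adjusted p = 0.072) and without RA normal replicate 1 (0.30, BH-adjusted p = 0.0954), RA normal replicate 2 (0.35, BH-adjusted p = 0.0512) or RA starved replicate 1 (0.26, BH-adjusted p = 0.155). Its whole transcript lies antisense within the body of the potassium channel gene Kcnq1, which ran beside it at 3.0 and 3.1, 4.78 and 4.86, 2.07 and 2.25, and 3.25 and 2.89 in the order of groups WT normal, WT starved, RA normal and RA starved. The exons of both share 121 bases, 0.13% of Kcnq1ot1. As the library kit does not mark strand, reads from introns of Kcnq1 could be mixed with those of Kcnq1ot1.

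Igf2r, the receptor that clears IGF2 and is expressed from the maternal allele, and Airn, the paternally expressed antisense RNA that starts in an intron of Igf2r and silences it in cis, moved in opposite directions. Igf2r rose from 93.3 and 90.1 to 169 and 153 in WT cells and from 90.3 and 86.9 to 136 and 136 in RA cells, 1.76 and 1.54 times the means in normal medium. Airn fell from 17.5 and 16.5 to 6.50 and 6.10 in WT cells and from 11.9 and 9.26 to 6.78 and 6.42 in RA cells. All 4 differences were called (BH-adjusted p from 4.76e-11 to 1.08e-04). The ratio of Igf2r to Airn within a library was 5.34 and 5.47 in WT cells in normal medium, 26.0 and 25.1 in starved WT cells, 7.61 and 9.38 in RA cells in normal medium and 20.0 and 21.3 in starved RA cells, without overlap between groups.

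Airn differed between the lines in normal medium, where RA cells were lower by 0.65 on the log2 scale (SE 0.11, BH-adjusted p = 9.02e-04) and 1.61 times below the mean of WT cells. Under starvation the lines differed by 0.06 ± 0.11 (BH-adjusted p = 0.655), and the interaction was 0.70 ± 0.15 (BH-adjusted p = 0.00106). Igf2r was lower in starved RA cells than in starved WT cells by 0.24 on the log2 scale (SE 0.05, BH-adjusted p = 2.67e-04). Its interaction of -0.19 ± 0.07 (BH-adjusted p = 0.023) was lost with edgeR (BH-adjusted p = 0.0627) and when any of 5 libraries was left out: WT normal replicate 2 (-0.17, BH-adjusted p = 0.0889), WT starved replicate 1 (-0.12, BH-adjusted p = 0.136), RA normal replicate 1 (-0.16, BH-adjusted p = 0.0607), RA starved replicate 1 (-0.19, BH-adjusted p = 0.0651) and RA starved replicate 2 (-0.19, BH-adjusted p = 0.0557). The annotated bodies overlap over 28354 bases but share no exon. Within the body of the other gene lie 114 exon bases of Airn and 519 of Igf2r. As the library kit does not mark strand, reads from introns of either could be mixed with those of the other.

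The windows at both starts are shown because they differ in base composition. A link between composition and response was not tested. The window of Igf2r (chr17:12769657-12769956, minus strand) held 34 CpG dinucleotides, more than or as many as 93.0% of all promoter windows, and the window of Airn (chr17:12741061-12741360, plus strand) held 3, as many as or more than 31.0%. Neither held a match to TGCCGC or GTAAACA. Capitals mark CpG.
Igf2r: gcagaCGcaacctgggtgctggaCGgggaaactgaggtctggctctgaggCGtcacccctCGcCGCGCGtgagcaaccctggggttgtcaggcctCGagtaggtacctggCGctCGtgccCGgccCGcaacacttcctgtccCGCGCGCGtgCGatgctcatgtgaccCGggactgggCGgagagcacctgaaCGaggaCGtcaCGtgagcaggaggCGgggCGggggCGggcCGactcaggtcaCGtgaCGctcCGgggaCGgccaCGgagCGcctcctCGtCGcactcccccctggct
Airn: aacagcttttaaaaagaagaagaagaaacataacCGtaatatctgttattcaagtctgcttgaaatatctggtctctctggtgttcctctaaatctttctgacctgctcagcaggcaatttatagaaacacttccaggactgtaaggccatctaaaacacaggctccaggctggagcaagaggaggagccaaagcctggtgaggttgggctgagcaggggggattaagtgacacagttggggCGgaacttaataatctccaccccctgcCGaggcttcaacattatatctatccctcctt
The median over all windows was 7.

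Impact and Plagl1 were the paternally expressed genes that starvation raised most, together with Dlk1. Impact encodes a regulator of GCN2, the kinase that senses amino acid shortage. It read 83.4 and 76.5 in WT cells in normal medium, 283 and 277 in starved WT cells, 72.2 and 68.7 in RA cells in normal medium and 154 and 151 in starved RA cells. The rise was 3.503 times the mean in normal medium in WT cells (1.80 ± 0.04, BH-adjusted p = 5.16e-16) and 2.16 times in RA cells (1.10 ± 0.04, BH-adjusted p = 9.99e-13), with an interaction of -0.70 ± 0.06 (BH-adjusted p = 1.32e-07). In normal medium Impact was lower in RA cells by 0.18 on the log2 scale (SE 0.04, BH-adjusted p = 0.0181), a call that was lost without WT normal replicate 1 (-0.12, BH-adjusted p = 0.257) and without RA normal replicate 2 (-0.14, BH-adjusted p = 0.111).

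Plagl1, a zinc finger transcription factor with growth-restraining activity, rose from 7.02 and 6.81 to 44.3 and 45.5 in WT cells and from 8.83 and 6.45 to 27.2 and 23.6 in RA cells. These are 6.49 and 3.33 times the means in normal medium, and the interaction was -0.91 ± 0.15 (BH-adjusted p = 9.13e-05). Among the 22 genes its difference of 2.54 ± 0.11 in WT cells was the highest (BH-adjusted p = 6.15e-13). Both genes therefore rose in either line and rose by less in RA cells.

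Peg10, Mest, Peg3, Ndn and Peg12 fell in both lines. Peg10, a retrotransposon-derived gene needed for the placenta, went from 80.8 and 77.2 to 22.5 and 20.9 in WT cells and from 74.5 and 73.5 to 37.3 and 37.7 in RA cells, 3.64 and 1.97 times below the means in normal medium. Its interaction was 0.85 ± 0.07 (BH-adjusted p = 5.97e-08). Sgce, which encodes epsilon-sarcoglycan and starts next to Peg10 in the opposite direction, changed less, from 49.2 and 56.5 to 36.5 and 40.0 in WT cells and from 53.3 and 56.3 to 44.2 and 43.5 in RA cells. Peg10 was 1.31 to 1.64 times Sgce in normal medium, 0.618 and 0.522 times in starved WT cells and 0.843 and 0.866 times in starved RA cells, so the ratio of these neighbours fell below 1 in every starved library. The difference of Sgce between starved RA and WT cells (0.19 ± 0.06, BH-adjusted p = 0.014) was lost without WT starved replicate 1 (0.13, BH-adjusted p = 0.152) or RA starved replicate 1 (0.18, BH-adjusted p = 0.0705).

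Peg3, a zinc finger gene active in embryonic and neural tissue, went from 35.3 and 36.9 to 17.8 and 16.2 in WT cells and from 34.7 and 31.4 to 23.3 and 24.6 in RA cells. The fall was 1.04 ± 0.07 and 0.45 ± 0.07 on the log2 scale (BH-adjusted p = 3.21e-10 and 2.24e-05), with an interaction of 0.60 ± 0.10 (BH-adjusted p = 8.41e-05). Usp29, which starts beside Peg3 on the opposite strand, stayed below the filter and held 66 and 40 reads in WT cells in normal medium, 12 and 2 in starved WT cells, 32 and 36 in RA cells in normal medium and 8 and 8 in starved RA cells. Tested without a filter, Usp29 fell by 0.88 ± 0.14 in WT cells (BH-adjusted p = 0.00117) and by 0.56 ± 0.14 in RA cells (BH-adjusted p = 0.0159). The promoter windows of both share 263 bases.

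Mest, which encodes a hydrolase-like protein of mesoderm, went from 21.1 and 21.8 to 7.40 and 6.91 in WT cells and from 17.9 and 17.5 to 7.21 and 7.99 in RA cells. The starved groups overlapped, and RA and WT cells did not differ under starvation by the test (0.08 ± 0.09, BH-adjusted p = 0.453). Its interaction of 0.34 ± 0.12 (BH-adjusted p = 0.0266) was lost after quantile normalization (0.19, BH-adjusted p = 0.21) and without WT normal replicate 2 (0.32, BH-adjusted p = 0.0844), WT starved replicate 2 (0.30, BH-adjusted p = 0.0768), RA normal replicate 2 (0.32, BH-adjusted p = 0.0664) or RA starved replicate 2 (0.28, BH-adjusted p = 0.11). In the annotation 23.1% of its exon bases are shared with Copg2 on the opposite strand, which read 33.9 to 49.4.

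The starts of Plagl1 and Mest are shown because they carry TGCCGC and their genes moved in opposite directions under starvation. The window of Plagl1 (chr10:13090582-13090881, plus strand) held 1 match and the window of Mest (chr6:30737800-30738099, plus strand) held 2, in capitals as they read on the plus strand.
Plagl1: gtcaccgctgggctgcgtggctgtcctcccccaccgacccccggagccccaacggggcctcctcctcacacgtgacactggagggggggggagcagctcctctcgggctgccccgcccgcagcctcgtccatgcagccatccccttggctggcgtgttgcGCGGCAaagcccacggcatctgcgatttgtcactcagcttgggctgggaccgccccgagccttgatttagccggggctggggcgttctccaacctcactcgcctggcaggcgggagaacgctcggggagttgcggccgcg
Mest: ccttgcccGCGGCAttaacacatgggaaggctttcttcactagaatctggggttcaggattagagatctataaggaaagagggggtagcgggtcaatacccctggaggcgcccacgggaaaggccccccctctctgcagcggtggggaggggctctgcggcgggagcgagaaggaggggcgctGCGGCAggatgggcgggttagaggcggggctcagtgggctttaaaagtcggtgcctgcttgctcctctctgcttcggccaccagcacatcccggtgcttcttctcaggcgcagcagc
At least 1 TGCCGC match was found in 9 of the 27 genes whose windows were read, among them Meg3, Nnat and Grb10. These genes thus include ones that rose and ones that fell.

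Ndn and Peg12 belong to the domain that in humans is linked to Prader-Willi syndrome. Ndn, which encodes the growth suppressor necdin, fell from 4.57 and 5.04 to 1.34 and 1.68 in WT cells and from 5.33 and 6.12 to 2.35 and 2.73 in RA cells, and starved RA cells were higher than starved WT cells by 0.50 ± 0.13 (BH-adjusted p = 0.00271). Peg12 fell from 2.70 and 2.10 to 0.859 and 0.950 in WT cells and from 2.16 and 2.38 to 0.431 and 0.537 in RA cells, the one paternal gene whose fall was numerically larger in RA cells; it too passed the filter through normal medium alone. Neither interaction was called (0.28 ± 0.18, BH-adjusted p = 0.202 for Ndn, and -0.31 ± 0.19, BH-adjusted p = 0.191 for Peg12). The difference of Peg12 between the lines under starvation (-0.36 ± 0.14, BH-adjusted p = 0.0295) was lost without any 1 of the 4 starved libraries, with values of -0.40 (without WT starved replicate 1), -0.33 (WT starved replicate 2), -0.31 (RA starved replicate 1) and -0.41 (RA starved replicate 2) and adjusted p from 0.0519 to 0.138.

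Nnat was the paternal gene that fell in WT cells without a called change in RA cells. It encodes neuronatin, a proteolipid of the endoplasmic reticulum. In WT cells it fell from 21.8 and 23.4 to 10.6 and 10.3 (-1.04 ± 0.07, BH-adjusted p = 3.47e-10), and in RA cells it read 25.1 and 26.4 and then 24.7 and 24.0 (-0.07 ± 0.07, BH-adjusted p = 0.358). The interaction was 0.97 ± 0.10 (BH-adjusted p = 4.79e-07). Nnat lies within the body of Blcap on the opposite strand without shared exon bases, and Blcap, at 40.3 to 56.8, differed with starvation by -0.24 in WT cells (called) and by 0.05 in RA cells (not called).

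Zrsr1, Grb10 and Gnas changed little or sat near the filter. Zrsr1, an intron-embedded splicing factor gene, lies within the body of Commd1 on the opposite strand. It shares 9.17% of its exon bases with Commd1, which read 51.4 to 59.5, and the library kit does not mark strand. Zrsr1 read 13.2 and 12.4, then 10.2 and 10.5 in WT cells, and 13.8 and 13.1, then 10.97 and 11.03 in RA cells. The falls of 0.28 ± 0.08 and 0.27 ± 0.08 on the log2 scale (BH-adjusted p = 0.00605 and 0.00888) were lost without WT normal replicate 1 (-0.24, BH-adjusted p = 0.0546) and without RA normal replicate 1 (-0.23, BH-adjusted p = 0.06) respectively, and the interaction was 0.01 ± 0.12. Grb10, a maternally expressed adaptor that restrains growth factor signalling, read 0.696 and 0.685, 1.42 and 1.35, 0.414 and 0.426, and 0.627 and 0.372 in the order WT normal, WT starved, RA normal and RA starved. It passed the filter through the starved WT samples alone, so its differences against them were favoured by the filter. Gnas, which encodes the stimulatory G protein alpha subunit and was the most abundant of the 33, read 770 and 785, 723 and 761, 751 and 828, and 726 and 725 in that order. The samples of WT and RA cells overlapped in either medium, and the fall of 0.12 ± 0.05 in RA cells (BH-adjusted p = 0.0286) was lost without RA normal replicate 2 (-0.05, BH-adjusted p = 0.324), RA starved replicate 1 (-0.12, BH-adjusted p = 0.0978) or RA starved replicate 2 (-0.12, BH-adjusted p = 0.104), and came to -0.19 without RA normal replicate 1. The antisense gene model Gm20721 shares 13.1% of the exon bases of Gnas and read 690 to 806, close to Gnas itself.

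Among the 11 genes too low to read, no library reached a value of 1 except 1 for Usp29. The paternal ones were Usp29 (2 to 66 reads), Snrpn (6 to 36), Igf2 (1 to 8), Zdbf2 (0 to 5) and Magel2 (0 to 2). The maternal ones were Ppp1r9a (10 to 29 reads), Phlda2 (6 to 22), Zim1 (4 to 22), Slc22a18 (0 to 12), Asb4 (0 to 10) and Ascl2 (0 to 2). Tested without a filter, Usp29 was called in both lines as given above and Asb4 was lower in starved RA cells than in RA cells in normal medium (-0.22 ± 0.05, BH-adjusted p = 0.0117), on 10 and 10 against 0 and 4 reads. Magel2 and Ascl2 stayed at 3 reads or fewer in every library, where 3 reads are worth 0.0548 to 0.0690, and a level below that was not detectable at this depth. Snrpn overlaps Gm38393 and Snurf on the same strand over 27.3% and 10.005% of its exon bases, so that its reads could be split among them. Among counts of 1 to 9 reads, 78.2% to 80.5% were even, and a count of 2 may therefore be a single read pair.

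**Figure D4:**
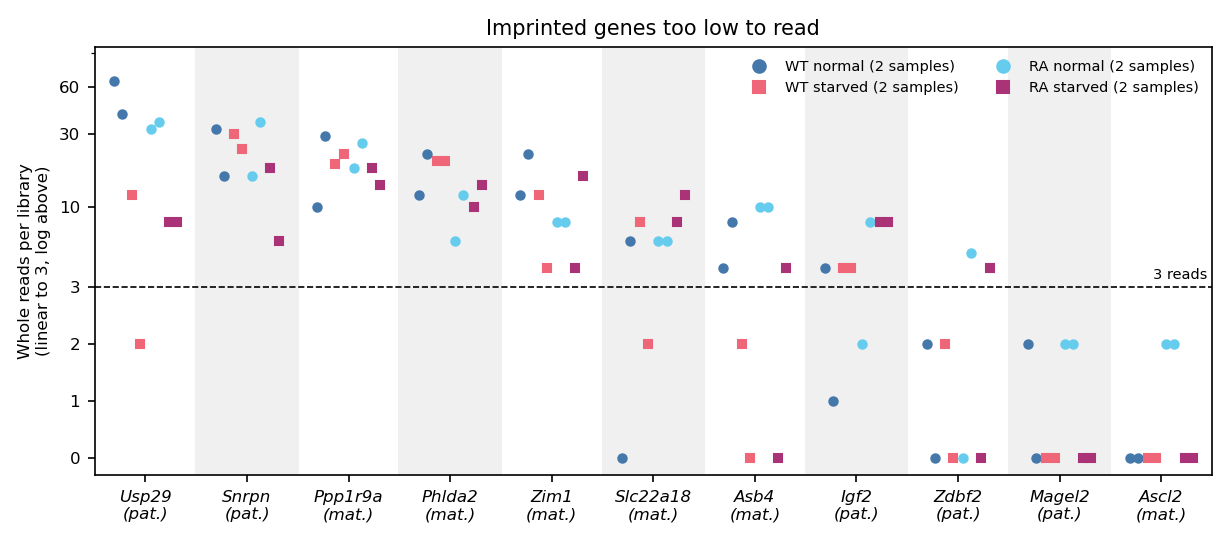
Whole reads per library (linear to 3 reads, log above) of the 11 imprinted genes below the filter, with the expressed allele under each name; each point is 1 of 8 libraries and the dashed line marks 3 reads. Usp29 is highest in normal medium at 32 to 66 reads, and Magel2 and Ascl2 stay at 0 to 2.

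Other imprinted genes and the proteins that keep imprints were listed for comparison. Of 40 further imprinted genes with a row, 24 were tested, and 3 were called between RA and WT cells in normal medium (all higher), 15 under starvation (10 higher, 5 lower), 22 for starvation in WT cells (11 and 11), 18 in RA cells (9 and 9) and 12 in the interaction (10 and 2), beside 9.63%, 62.9%, 78.6%, 68.7% and 50.6% of all genes. Their median interaction was 0.07, beside 0.32 over the 22 genes. Those highest in the interaction were Cd81 (1.64), a membrane tetraspanin, Atp10a (1.33), a phospholipid flippase, and Dcn (1.0), the matrix proteoglycan decorin. In starved WT cells Slc38a4, an amino acid transporter, was lowest at -2.50, followed by Atp10a at -2.09.

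Of 18 genes for imprint maintenance 16 were tested. In the same comparisons 1 was called (lower), then 9 (2 higher, 7 lower), 11 (4 and 7), 13 (3 and 10) and 7 (3 and 4), beside the same shares of all genes; the counts for RA against WT cells, for starvation in WT cells and for the interaction lay below those shares. Zfp57, whose protein binds methylated TGCCGC in imprinting control regions, rose from 49.3 and 53.4 to 187 and 192 in WT cells and from 39.2 and 40.3 to 107 and 108 in RA cells. Uhrf1 and Dnmt1, which copy DNA methylation at replication, fell in both lines, Uhrf1 by 1.67 and 1.40 and Dnmt1 by 1.25 and 1.07 on the log2 scale in WT and RA cells. The insulator protein gene Ctcf fell by 1.24 and 0.66, with an interaction of 0.59. DNA methylation was not measured here.

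Markers of several cell types moved with starvation, and their part in the results was not tested. Of 9 fibroblast markers tested 8 fell in WT cells, beside 39.2% of all genes. In RA cells 6 fell and 1 rose, beside 33.7% and 35%. Under starvation 8 of 9 were higher in RA than in WT cells, beside 30.8%. The marker not tested, Lum, held 0 to 18 reads per library. The epithelial list summed to 83.2 to 89.9 in WT cells in normal medium. It summed to 37.2 to 38.8 in starved WT cells and 64.8 to 68.3 in starved RA cells. Krt19 made most of these sums, at 81.7 and 87.8 in WT cells in normal medium. Krt18 did not fall with it, at 0.870 and 1.33 there and 1.42 and 1.57 in starved WT cells. Cdh1 was highest in starved RA cells, at 1.18 and 1.16. In the same groups the neural list summed to 114 to 115, 32.6 to 34.2 and 45.7 to 47.2. Tubb3 and Map2 made most of it, and Sox2 stayed at 3 reads or fewer in every library. In the same 3 groups the list for macrophages and other leukocytes summed to 13.4 to 13.97, 24.2 to 25.2 and 21.3 to 21.8, with Cd3e at 0 and Ptprc at 3 reads or fewer. The endothelial list summed to 2.62 to 3.44, 8.92 to 9.43 and 6.03 to 6.38. Kdr went from 2.26 and 1.73 in WT cells in normal medium to 6.24 and 6.54 in starved WT cells. Tek went from 0.304 and 0.242 to 3.06 and 2.32 in the same groups. Pecam1, Cdh5 and Emcn went the other way there on low counts, Pecam1 from 22 and 15 reads to 4 and 3. The skeletal muscle list stayed at or under 4.79 with Myod1 and Myog at 0, and the pluripotent or germ cell list at or under 1.89.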

How the data were processed

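The deposited table held 1 value per gene and sample, a signal like CPM for which the authors had scaled each library size. Per the labels and the study's methods, the libraries held polyadenylated RNA and came from a kit that does not mark strand. Reads of genes on opposite strands therefore cannot be told apart where these overlap. The paired-end reads were aligned with TopHat2 2.0.9 to mm9, and bedtools and edgeR are named. The counter, annotation and strand setting of the counts are not given in the sources used here. Columns named minus and plus were read as without and with glucose starvation. All values were whole multiples of 1 read (100% within 0.1 of a read). As the columns do not share one total, the values were treated as a scaled signal and not as the plain CPM that had been assumed. Rows named as dates (26) and rows at 0 in every library (18085) played no part here.

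log2(value + 1) of 16232 genes, those that reached 1 in 2 or more of the 8 samples, was fitted with limma 3.58.1 (R 4.3.3; 4 group means, trended variance prior, all groups sharing 1 estimate of the spread), with BH adjustment over all of them and a threshold of 0.05. Alternatives were a pseudocount of 0.1, other filters, other scalings, edgeR 4.0.16 and DESeq2 1.42.0 on the recovered reads, a replicate block, only the groups compared, no variance trend, and leaving out each sample. On simulated data, in which only 200 of 16232 genes changed, the fit recovered 93% of these between RA and WT under starvation, with 4.62% false calls. For the interaction it recovered 84%, with 3.45%. In the real data 62.9% and 50.6% of genes were called in these comparisons, so these rates may not hold there. Depth was 43205841 to 56363034 reads. The SEs measure the spread between these samples, and the floor of 3 reads covers counting error only.

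The members and all lists were chosen with earlier results of these data known. Every member was described, and of the further lists no more than 3 called genes from either end of the range of differences in a comparison, beside genes named for their overlap or role. Exon overlaps were taken from GENCODE M21 (GRCm38) and sequences from RefSeq (GRCm38.p6), neither of them the build of the table. Sequences from the chromosome of Impact are not reported here.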

Additional observations from a re-analysis of the deposited data

Results flagged for a closer look

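For 13 of the 22 imprinted genes tested, the response to starvation differed between RA and WT cells by the test of the difference itself (limma, BH-adjusted p under 0.05, values on the log2(value + 1) scale), where 50.6% of all genes were called. Above 0, so higher or less lowered in RA cells, were Mirg (2.11), Rian (1.77), Meg3 (1.55), Cdkn1c (1.23), H19 (1.18), Nnat (0.97), Peg10 (0.85), Airn (0.70), Peg3 (0.60) and Mest (0.34). Below 0 were Plagl1 (-0.91), Impact (-0.70) and Igf2r (-0.19). The values of Igf2r and Mest lost the call when single libraries were left out, as given with those genes. With 2 samples a group, no single sample was tested for standing apart from its group.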

How the results depend on the processing

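Of 95 recomputed counts of called imprinted genes, 93 were within 1.5 times the reported one. The exceptions were RA against WT cells in normal medium, with 1 gene called instead of 3 without a filter on low values and 1 without the variance trend. The number of genes too low to read was 11 by the filter and 2 when set at 3 or fewer reads in every library. The 71 called differences were recomputed 1334 times. None changed direction, 1284 stayed called and 50 did not pass the threshold, all of them in Impact, Dlk1, Sgce, Peg12, Zrsr1, Gnas, Kcnq1ot1, H19, Igf2r and Mest. Without a starved WT sample Grb10 no longer entered the test. Differences not called by limma were left out of this check. Of these, edgeR called Gnas for starvation in WT cells as given above and Mest between the lines in normal medium (-0.29, BH-adjusted p = 0.0348). It also called Rtl1 between the starved lines (1.11, BH-adjusted p = 0.0279) and in the interaction (1.40, BH-adjusted p = 0.0297).

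Deviations of samples with the same replicate number correlated weakly, from -0.0076 to 0.157, and the labels do not say whether such samples share more than the number. Over all genes the replicate block raised the number called in each comparison, in normal medium from 1563 to 2059. With the replicate block 3, 17, 21, 17 and 13 of the 22 genes were called in the order of the 5 comparisons, the same genes as without it.

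With 2 samples a group no result has a check beyond these libraries.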
